A study of Xenopus laevis with 12 samples.

Results

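Solute carriers are the membrane proteins that move amino acids, sugars, ions, metals, nucleotides and metabolites across the plasma membrane and the membranes of organelles, driven by gradients rather than by direct use of ATP. They are numbered by sequence family, and family members mostly share a substrate class: slc2 proteins carry sugars, slc30 proteins move zinc out of the cytosol, slc35 proteins bring nucleotide sugars into the Golgi and endoplasmic reticulum, and slc25 proteins mostly serve the inner mitochondrial membrane. In an early frog embryo the cells still hold maternal transcripts of many such housekeeping carriers, while carriers of tissues such as epithelia come on with differentiation. The genes described here are those whose annotated symbol begins with slc and a family number. There were 120 such genes from 40 families, each read by the probe set with the highest mean, among 7531 named genes and 15491 probe sets tested. Of them 78 carry the suffix L and 39 the suffix S, which mark the copies of a gene on the long and short subgenomes of Xenopus laevis, and 3 carry no suffix. Genes are counted by symbol, so slc35b1 and slc35b1.L count separately, although they may be the same gene. The rule also took in both copies of slc9a3r1, which encode a scaffold protein that binds a sodium/proton exchanger and is not itself a carrier, so 118 of the genes encode members of the carrier families.

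The embryos were whole Xenopus laevis embryos at stage 11.5, late in gastrulation, each hybridised alone to an Affymetrix array. The control group was 6 embryos injected at the 8-cell stage with mRNA for GFP, a fluorescent marker protein, and the other group was 6 embryos injected with mRNA for Nkx2-5, a homeodomain transcription factor of heart development, along with the GFP mRNA. Both groups thus share the GFP mRNA and the injection. The series title asks for putative targets of Nkx2-5, the labels name 1 experiment, and nothing in them says whether embryos shared parents, so the tests measure the spread between these embryos.

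Values are MAS5 signals on a linear scale. Differences are given as Nkx2-5+GFP minus GFP on the scale of log2(signal + 16), which compresses the differences of dim probe sets, and a gene is said to have risen or fallen only where limma's Benjamini-Hochberg adjusted p over all 15491 probe sets was under 0.05. In bulk embryos, fewer cells of a type and less RNA per cell cannot be told apart. As a check of the labels, 1 of the nkx2-5.S probe sets rose, from 95.0 ± 33.4 to 169 ± 39.7, and the other read 93.7 ± 20.7 and 140.5 ± 24.8 without passing (SD, n = 6 each, limma adjusted p = 0.0431 and 0.0731). These means are dim, under the lowest median signal of any array (305), so the check is weak. Whether these probe sets detect the injected mRNA was not tested. Markers of 7 tissue lists chosen for a whole gastrula were read, but some listed genes, such as foxj1 and mcidas, were not among the named genes. No measured marker was at 0, which alone does not show expression. Of all probe sets, 3.12% rose and 3.26% fell. Of the measured epidermal markers 6 of 8 rose, and their summed signal was 13921 to 17662 in GFP embryos and 20984 to 31067 in Nkx2-5+GFP embryos. The 6 include the L and S copies of a single gene, krt12.4. Of 9 endodermal markers 2 fell, with sums of 12149 to 15222 and 9512 to 11617. The 2 were the L and S copies of a single gene, mix1, with log2 differences of -1.23 and -1.29. The other endodermal markers lay between -0.33 and -0.04 without passing. Maternal and germ plasm markers (2 of 5 fell), mesoderm (2 of 6 rose), neural plate (1 of 7 fell), ciliated cells and ionocytes (1 of 4 rose) and organizer (0 of 7) had sums that overlapped between groups. The part of these tissue differences in the carrier results was not tested.

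Of the 120 solute carrier genes, 4 rose, 6 fell and 110 did not pass. slc22a4.L, slc35c2.S, slc17a9.L and slc18a1.S rose, and slc35b3, slc30a1.L, slc30a6.L, slc48a1.L, slc8b1.S and slc2a9.S fell. Of these, slc35c2.S, slc18a1.S, slc30a6.L and slc8b1.S were dim, with means under the median of all probe sets. The rises cover an organic cation carrier of the plasma membrane, a Golgi protein and carriers that fill vesicles with nucleotides and amines. The falls cover carriers of zinc, heme, mitochondrial calcium, urate and the sulfate donor of the Golgi. The 10 genes are 8.33% of the members, and 6.38% of all probe sets and 6.97% of named genes passed, so the count is near the background. In separate directions, 3.33% of members rose beside 3.12% of all probe sets (3.11% of named genes), and 5% fell beside 3.26% (3.86% of named genes).

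Differences were small. None of the 120 reached a log2 difference of 1 in either direction, 17 reached 0.5, and the range ran from -0.84 (slc30a6.L) to 0.82 (slc22a4.L). The median was -0.05 over the members and -0.02 over all probe sets. Members lay below 0 in 67 cases and above it in 53. Groups did not overlap in 6 members, 5% of them beside 2.99% of all probe sets and 252 of the 7531 named genes. Of these 6, 5 passed. In 3 the Nkx2-5+GFP embryos were higher, beside 1.57% of all probe sets, and in 3 they were lower, beside 1.42%. At an unadjusted p under 0.05 stood 36 members, 30% of them, beside 24.3% of all probe sets and 2025 of the 7531 named genes. Of the 36, 15 were higher and 21 lower. Array scaling moved the split. With arrays scaled to a common median, 6 rose and 4 fell, beside 5.76% of all probe sets that passed. The member median was then 0.00349 with 58 below 0, and the median over all probe sets was 0.0338. With quantile normalization 5 rose and 4 fell, beside 5.91% of all probe sets that passed.

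**Figure D1:**
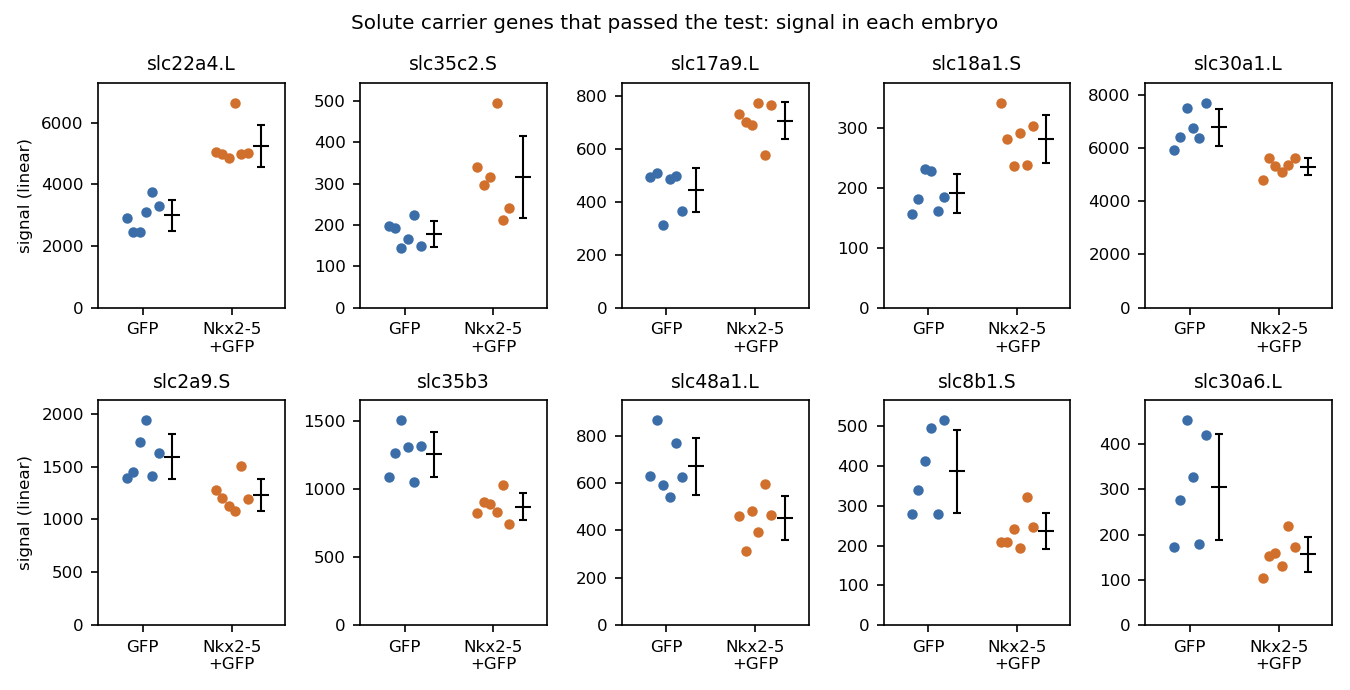
Signal (linear scale, y axis from 0) of the 10 solute carrier genes that passed the test, in each of 6 GFP embryos (blue) and 6 Nkx2-5+GFP embryos (orange), with mean and SD in black. For slc22a4.L, slc17a9.L, slc18a1.S, slc30a1.L and slc35b3 the groups do not overlap, and for slc35c2.S, slc2a9.S, slc48a1.L, slc8b1.S and slc30a6.L they do.

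The smallest p among the members belonged to a carrier of organic cations. slc22a4.L encodes a plasma membrane carrier that in mammals takes up ergothioneine and other organic cations. Its signal was 2449 at the lowest, 3011 at the median and 3739.8 at the highest in GFP embryos, and 4852, 5001 and 6642 in Nkx2-5+GFP embryos. Every Nkx2-5+GFP embryo was above every GFP embryo, with embryo 4 well above the other five. The rise was 1.76-fold, a log2 difference of 0.82 (limma SE 0.11, adjusted p = 0.00121; exact permutation p = 0.00216, the smallest that 924 assignments can give). It passed in all 21 alternative settings of scaling, fitting and embryos used, with adjusted p from 0.000488 to 0.00683, and also with the beta-actin ratio described further on in the fit. The related slc22a5.L, the carnitine carrier in mammals, read 726 to 1147 and 974 to 1741, a log2 difference of 0.48, short of the threshold (limma adjusted p = 0.0569). It passed in 3 of 21 alternative settings (limma adjusted p down to 0.0198). These left out the probe sets under the median or Nkx2-5+GFP embryo 5, or used the replicate number as a block. The second slc22a5.L probe set differed by 0.41. slc22a8.S was dim, at mean signals of 14.6 and 25.2, and slc22a15.2.S lay at -0.28 without passing. In the class of lipids and organic ions, 7 were measured. Of these 1 rose, 0 fell and 6 did neither, where 3.12% of all probe sets rose and 3.26% fell. The median log2 difference of the class was 0.15. The fatty acid carrier gene slc27a2.L, with a log2 difference of -0.47, did not pass.

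The 2 genes that rose among the 24 of the class of amino acids, peptides and neurotransmitters encode carriers that load vesicles. Of all probe sets, 3.12% rose. The vesicular genes were not set apart as a class in advance. slc17a9.L encodes the vesicular nucleotide carrier, which in mammals packs ATP into secretory vesicles. GFP embryos spanned 311 to 511 around a median of 491, and Nkx2-5+GFP embryos spanned 579 to 775 around 717. The groups did not overlap, and GFP embryos 3 and 6 were the lowest of all. The log2 difference was 0.67 (limma SE 0.13, adjusted p = 0.0126), and it passed in the same 21 settings but not with the beta-actin ratio in the fit (adjusted p = 0.0501). With that ratio 1.03% of all probe sets passed. slc18a1.S, a vesicular monoamine carrier gene, read 157, 184 and 232 (lowest, median, highest) in GFP embryos and 237, 288 and 343 in the other group. The closest values of the groups were GFP embryo 3 and Nkx2-5+GFP embryo 3. It rose by 0.53 on the log2 scale (limma SE 0.14, adjusted p = 0.0385), a call lost on leaving out GFP embryo 1, 2, 3, 5 or 6, or, in the other group, embryo 1, 2, 4 or 6, with adjusted p up to 0.0981. The other vesicular monoamine carrier gene, slc18a2.L, was dim and had the opposite sign. Its mean signal was 89.6 ± 15.7 in GFP and 48.5 ± 31.4 in Nkx2-5+GFP embryos (SD, n = 6 each), and it did not pass (limma adjusted p = 0.0742). The lysosomal sialic acid carrier gene slc17a5.S differed by 0.01, and slc32a1.S, which loads GABA and glycine into vesicles, was dim at 10.9 and 13.3.

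Amino acid carriers of the plasma membrane had no member that passed. Together with the vesicular genes they form a class of 24, in which 2 rose, 0 fell and 22 did neither, with 13 above 0, 11 below, 8 at an unadjusted p under 0.05 and a median of 0.02. Of all probe sets, 3.12% rose, 3.26% fell and 24.3% stood at an unadjusted p under 0.05. slc3a2.S encodes the heavy chain that brings the light chains slc7a5 and slc7a8 to the cell surface, where they exchange large neutral amino acids. It read 148 to 327 in GFP and 252 to 468 in Nkx2-5+GFP embryos, a log2 difference of 0.60, short of the threshold (limma SE 0.19, adjusted p = 0.0710). Of 20 alternative settings slc3a2.S passed in 2, under both array scalings (limma adjusted p = 0.0478 in each). The other copy of the heavy chain gene, slc3a2.L, had the opposite sign, at -0.39, and missed the threshold too (limma adjusted p = 0.402). The measured genes of slc7a5 and slc7a8 lay above 0 and did not pass, while the light chain genes slc7a7.L and slc7a9.L lay below 0. Of the genes named here, slc3a2.S, slc3a2.L, slc7a5.L and slc7a8.S were dim, with means under the median of all probe sets. slc7a5.L differed by 0.56 (limma adjusted p = 0.156), slc7a8.S by 0.71 (limma adjusted p = 0.0782) and slc7a8.L by 0.45 (limma adjusted p = 0.293). These 3 and the other members named outside the rule of the methods were picked after their values were seen. The glutamine carrier gene slc1a5.S differed by -0.36 without passing (limma adjusted p = 0.0831). The bright slc6a14.2.L, whose mammalian counterpart takes up neutral and cationic amino acids, read 7093 ± 497 and 7008 ± 891 (SD, n = 6 each), which is -0.02 on the log2 scale (SE 0.08). The cationic amino acid carrier gene slc7a3.L was as close, with a log2 difference of 0.02. slc38a2.L, a sodium-coupled neutral amino acid carrier, differed by 0.19, and slc15a2.L, for peptides, by -0.01. slc7a7.L and slc7a9.L, light chains that exchange basic amino acids, differed by -0.19 and -0.16, and none of these passed.

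**Figure D2:**
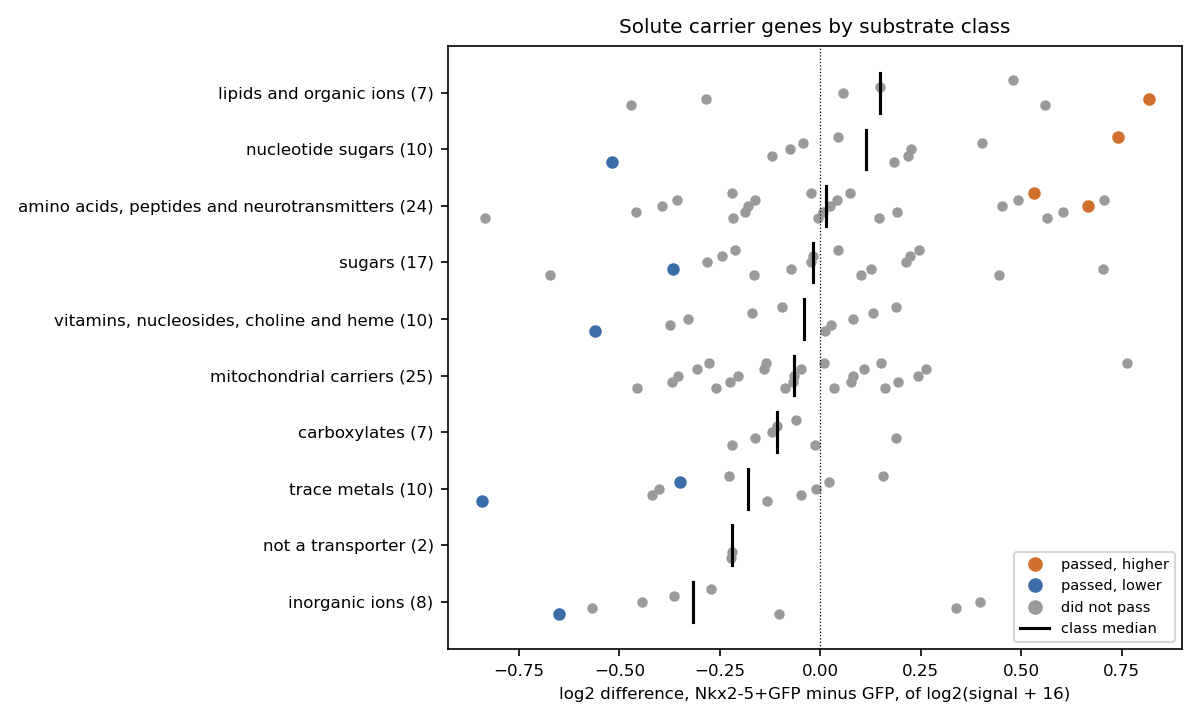
Log2 difference (Nkx2-5+GFP minus GFP, of log2(signal + 16), x axis) of each of the 120 genes, grouped by the substrate class of its family with the number of genes in brackets; points are genes, orange rose, blue fell, grey did not pass, and black bars are class medians. Class medians run from -0.32 for inorganic ions to 0.15 for lipids and organic ions. No gene passed among mitochondrial carriers, carboxylates and the genes that are not transporters, beside 6.38% of all probe sets.

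Genes serving the Golgi and endoplasmic reticulum went both ways. In the nucleotide sugar family slc35, 10 genes were measured. Of these 1 rose, 1 fell and 8 did neither, where 3.12% of all probe sets rose and 3.26% fell. The family median was 0.11. slc35b3 encodes a Golgi carrier of PAPS, the sulfate donor for sulfation of glycans and proteins. Signals ran from 1055 to 1507 (median 1288) in GFP embryos and from 745 to 1032 (median 860.0) in Nkx2-5+GFP embryos, without overlap. It fell by 0.52 on the log2 scale (limma SE 0.11, adjusted p = 0.0143) and passed in the same 21 settings but not with the beta-actin ratio in the fit (adjusted p = 0.0608). With that ratio 1.03% of all probe sets passed. A second slc35b3 probe set fell too, from 757 ± 133 to 504 ± 98.2 (SD, n = 6 each), by 0.57 on the log2 scale (limma adjusted p = 0.0289). The other PAPS carrier gene, slc35b2.S, differed by -0.04 without passing (limma adjusted p = 0.816).

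slc35c2.S, whose mammalian counterpart is a Golgi protein related to the GDP-fucose carrier and promotes fucosylation of Notch, rose by 0.74 on the log2 scale (limma SE 0.18, adjusted p = 0.0298). It read 143, 178 and 225 (lowest, median, highest) in GFP and 212, 305 and 495 in Nkx2-5+GFP embryos. Only Nkx2-5+GFP embryo 5, the lowest of its group, lay below a GFP embryo, number 5. The call was lost on leaving out GFP embryo 3, 4 or 6, or, in the other group, embryo 1, 2 or 4 (adjusted p up to 0.0738). Of the brighter members of the family, slc35d1.L, the UDP-glucuronic acid carrier gene, had means of 4241 ± 799 and 5579 ± 844 (SD, n = 6 each, limma adjusted p = 0.0762). slc35a3.2.S, named for the UDP-N-acetylglucosamine carrier, had 5004 ± 229 and 5827 ± 349.7 (SD, n = 6 each, limma adjusted p = 0.0539). slc35b1, an ATP/ADP exchanger of the endoplasmic reticulum in mammals, differed by 0.18 (limma adjusted p = 0.137). None of these 3 passed in the main fit. Of 21 alternative settings slc35d1.L passed in 2 and slc35a3.2.S in 3. The other 4 members of the family lay between -0.12 (slc35e1.L) and 0.23 (slc35a2.L).

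All 5 measured genes of the zinc efflux family slc30 lay below 0, as did 8105 of the 15491 probe sets. The 5 also did so under quantile normalization and under scaling to the array median. They include the L and S copies of slc30a6, so they are not 5 independent readings. Of the 5, 2 fell and 3 did not pass, where 3.26% of all probe sets fell. slc30a1.L encodes the zinc exporter of the plasma membrane. Its signal was 5925 to 7696 in GFP embryos, with a median of 6578, and 4787 to 5626 in Nkx2-5+GFP embryos, with a median of 5339. The groups did not overlap. It fell by 0.35 on the log2 scale (limma SE 0.08, adjusted p = 0.0184), a call lost without Nkx2-5+GFP embryo 1 and without the intensity trend (adjusted p up to 0.0566). slc30a6.L, for a protein of this family at the trans-Golgi, read 173, 302 and 453 (lowest, median, highest) in GFP and 103, 156 and 219 in Nkx2-5+GFP embryos. GFP embryos 1 and 5 stood within the range of the other group. The fall of 0.84 on the log2 scale (limma SE 0.24, adjusted p = 0.0464) was the largest among members that passed. It no longer passed without GFP embryo 2, 3, 4 or 6, without any Nkx2-5+GFP embryo but number 5, or without the intensity trend (adjusted p up to 0.113).

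The S copy, slc30a6.S, read 2133 ± 279 and 1622 ± 321 (SD, n = 6 each) and did not pass (log2 difference -0.40, limma adjusted p = 0.0574). It passed in 3 of 21 alternative settings (limma adjusted p down to 0.0103). These left out the probe sets under the median, GFP embryo 5 or Nkx2-5+GFP embryo 5. The probe sets of both copies are of the x_at type, which can detect more than 1 transcript, so part of their signal may be shared. A second probe set of each copy, of the plain type, differed by -0.53 for slc30a6.L and by -0.35 for slc30a6.S, and neither passed (limma adjusted p = 0.140 and 0.0964). slc30a9.S, for a zinc carrier of mitochondria, differed by -0.42 without passing (limma adjusted p = 0.0964). The bright slc30a2.L, for a zinc carrier of vesicles, read 7394 ± 584 and 6745 ± 538 (SD, n = 6 each), a log2 difference of -0.13 with limma's adjusted p = 0.281.

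Genes for movement of zinc into the cytosol lay near 0. In family slc39, slc39a7.L, slc39a9.L and slc39a9.S differed by 0.16, -0.05 and -0.01, and none passed. All 3 were above 0 when arrays were scaled to the median. The difference between the slc30 and slc39 families was not tested. Of the copper carriers, slc31a1.S, the main uptake gene, differed by 0.02, and slc31a2.S by -0.23 without passing (limma adjusted p = 0.102). In all, the trace metal class of 10 held 0 genes that rose and 2 that fell beside 8 that did neither, with a median of -0.18. Of all probe sets, 3.12% rose and 3.26% fell.

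**Figure D3:**
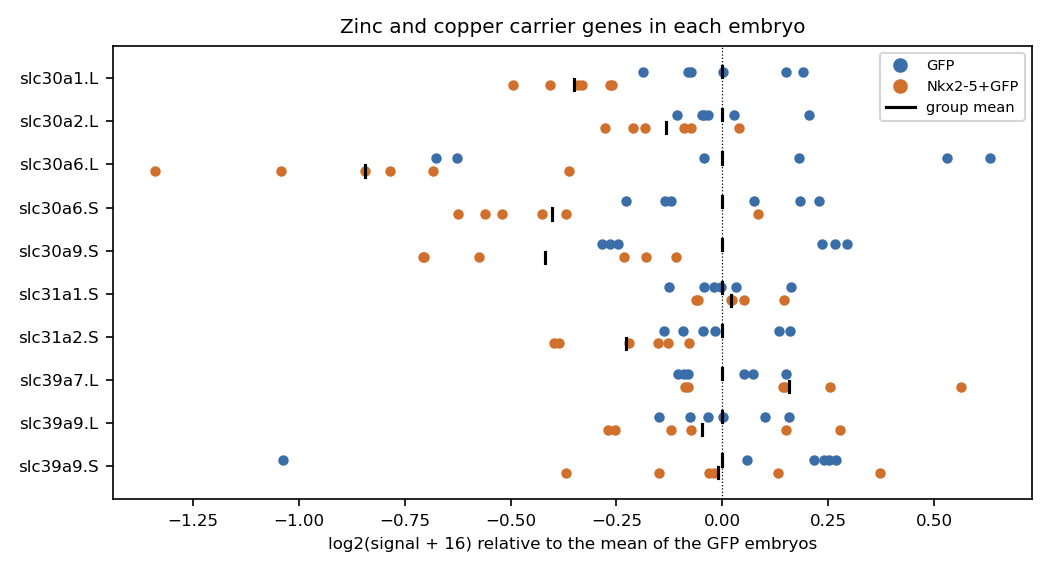
Zinc (slc30, slc39) and copper (slc31) carrier genes: each point is 1 embryo, as log2(signal + 16) relative to the mean of the GFP embryos (x axis), blue for GFP, orange for Nkx2-5+GFP, with group means as black bars. The means of the slc30 genes lie between -0.13 and -0.84, while those of slc39 lie between -0.05 and 0.16.

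Heme and calcium carriers each had a member that fell. slc48a1.L encodes a heme carrier of endosomes and lysosomes. Its signal was 543 to 865 in GFP embryos, with a median of 629.8, and 315 to 596 in Nkx2-5+GFP embryos, with a median of 463. The highest Nkx2-5+GFP embryo, number 5, stood above the 2 lowest GFP embryos. It fell by 0.56 on the log2 scale (limma SE 0.15, adjusted p = 0.0392). The call was lost without any single embryo except GFP embryo 4 or Nkx2-5+GFP embryo 5, with both array scalings and without the intensity trend (adjusted p up to 0.0782). The S copy differed by -0.37 without passing (limma adjusted p = 0.405). In the class of vitamins, nucleosides, choline and heme, 10 genes were measured, and 0 rose, 1 fell and 9 did neither, with a median of -0.04. Of all probe sets, 3.12% rose and 3.26% fell. The bright member of this class slc52a1.L, for riboflavin, differed by -0.17 without passing. The nucleoside carrier genes slc29a1.S and slc29a2.L had opposite signs, at -0.33 and 0.13, and neither passed. The choline carrier gene slc44a1.L and the folate carrier gene slc46a1.L lay at 0.03 and -0.09.

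slc8b1.S encodes the sodium/calcium exchanger of the inner mitochondrial membrane. GFP embryos read 280.1, 375 and 515 (lowest, median, highest) and Nkx2-5+GFP embryos 195, 225 and 322. The overlap came from Nkx2-5+GFP embryo 5, which lay above GFP embryos 1 and 5. The fall was 0.65 on the log2 scale (limma SE 0.17, adjusted p = 0.0407). It did not pass without GFP embryo 2, 3, 4 or 6, without any Nkx2-5+GFP embryo but number 5, or without the intensity trend (adjusted p up to 0.0923). The exchanger of the plasma membrane, slc8a1.S, known for calcium handling in heart muscle, was dim at mean signals of 26.2 and 14.4. Among the 8 inorganic ion carriers, 0 rose, 1 fell and 7 did neither, with 6 below 0 and a median of -0.32, and 6 of the 8 had means under the median of all probe sets. Of all probe sets, 3.12% rose and 3.26% fell. Of the bicarbonate and borate family slc4, slc4a1.L differed by 0.34 and slc4a11.L by -0.10, and neither passed. The phosphate carrier gene slc20a1.L read 2327 ± 309 and 1824 ± 379.6 (SD, n = 6 each) and did not pass (log2 difference -0.36, limma adjusted p = 0.0942). It passed in 1 of 21 alternative settings, without Nkx2-5+GFP embryo 5 (limma adjusted p = 0.0265).

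Sugar carriers had 1 member that fell, slc2a9.S, which belongs to the glucose carrier family by sequence and carries urate in mammals. Among GFP embryos it ranged from 1396 to 1939 (median 1541), and among Nkx2-5+GFP embryos from 1077 to 1507 (median 1199). Only Nkx2-5+GFP embryo 5 reached into the GFP range. It fell by 0.37 on the log2 scale with the adjusted p closest to the threshold of all members that passed (limma SE 0.10, adjusted p = 0.0488). The call was lost without GFP embryo 2, 3, 4 or 6, without any Nkx2-5+GFP embryo but number 5, with both array scalings and without the intensity trend (adjusted p up to 0.114). The L copy, slc2a9.L, differed by -0.28 without passing (limma adjusted p = 0.159). Glucose carriers did not pass: slc2a1.L, the general glucose carrier gene, differed by 0.21, and slc2a2.L, of the liver and gut type, by 0.04. slc2a3.L differed by 0.70 at dim mean signals of 34.9 and 62.9. Family slc5, counted in this class, also carries other solutes, and slc5a8.1.L, a monocarboxylate carrier, read 2745 ± 577 and 3709.6 ± 581 (SD, n = 6 each) without passing (log2 difference 0.44, limma adjusted p = 0.0604). In 3 of 21 alternative settings slc5a8.1.L passed (limma adjusted p down to 0.0199). These left out the probe sets under the median or GFP embryo 5, or used the replicate number as a block. The iodide carrier gene of that family, slc5a5.L, was dim, with a log2 difference of -0.67 (limma adjusted p = 0.0983). Across the class of 17, 0 rose, 1 fell and 16 did neither, with a median of -0.02. Of all probe sets, 3.12% rose and 3.26% fell.

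Carboxylate carriers held no gene that passed among 7, beside 6.38% of all probe sets. Their log2 differences ran from -0.22 to 0.19, with 0 at an unadjusted p under 0.05, beside 24.3% of all probe sets. slc16a3.L encodes a lactate exporter. It was the steadiest bright member among GFP embryos, at 12558 to 14068 in GFP and 11259 to 14429 in Nkx2-5+GFP embryos, a log2 difference of -0.06 (SE 0.06). Its S copy differed by -0.22 without passing (limma adjusted p = 0.473), and slc16a1.S, for lactate and pyruvate uptake, by -0.12.

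Mitochondrial carriers made up the largest class, and none of the 25 measured genes of family slc25 passed, beside 6.38% of all probe sets. The smallest adjusted p was 0.0838 (slc25a44.L), and 4 were under an unadjusted p of 0.05, beside 24.3% of all probe sets. The class median was -0.06, with 11 above 0 and 14 below. The adenine nucleotide carrier gene slc25a5.L, which exchanges ADP for ATP across the inner membrane, read 21294 to 26171 in GFP and 24344 to 26660.5 in Nkx2-5+GFP embryos, a log2 difference of 0.11 (limma SE 0.06, adjusted p = 0.260). The phosphate carrier gene slc25a3.L differed by 0.08 (SE 0.08) in this probe set and by 0.10 in another. Both carriers serve ATP synthesis. slc25a44.L, which takes branched-chain amino acids into mitochondria in mammals, was the 1 member whose groups did not overlap without passing. It read 2444 to 3025 in GFP embryos and 1807 to 2426 in the other group, a log2 difference of -0.26. slc25a29.L, for basic amino acids, had the largest difference of the family, 0.76 (limma SE 0.28, adjusted p = 0.112). Its GFP embryos were spread from 218 in embryo 3 to 1065 in embryo 5. Of 21 alternative settings slc25a29.L passed in 1, without GFP embryo 5 (limma adjusted p = 0.0274). In the other 20 the limma adjusted p was up to 0.226. slc25a28.S, a mitochondrial iron carrier gene, differed by -0.35, and slc25a46.S, for an outer membrane protein of mitochondrial shape, by -0.37, neither passing. The family also holds slc25a17, whose product lies in peroxisomes. Its copies differed by 0.26 (slc25a17.L) and 0.03 (slc25a17.S).

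Both copies were measured for 16 of the genes. The 16 include slc9a3r1, which is not a carrier. In 14 of the 16 the L and S copies had the same sign, beside 65.1% of 1017 pairs on the array. Both copies lay below 0 in 11 and above 0 in 3, beside 320 and 342 of the 1017 pairs. The count of 14 held under both array scalings, with 10 in place of 11 both below 0 when arrays were scaled to the median. Probe sets of 1 copy can detect RNA of the other. In 3 pairs 1 copy passed and the other did not, namely slc30a6, slc48a1 and slc2a9, and in none did both pass. Over the 1017 pairs on the array, 1 copy alone passed in 118 and both in 13. Whether the copies differed in their response was tested directly on the ratio of L to S signal within each embryo. None of the 16 passed, beside 1.08% of the 1017 pairs (limma adjusted over 1017 pairs). At an unadjusted p under 0.05 stood 2 of the 16, beside 170 of the 1017 pairs. For slc30a6 the L minus S difference changed by -0.44 (limma SE 0.18, adjusted p = 0.223), for slc48a1 by -0.19 (limma SE 0.27, adjusted p = 0.754), and for slc2a9 the L minus S difference changed by 0.09 (limma SE 0.12, adjusted p = 0.739). slc3a2 had the largest gap, with -0.39 for L and 0.60 for S, and the test of that gap did not pass (limma SE 0.33, adjusted p = 0.149). slc3a2.L was dim, at a mean signal of 50.7 in GFP embryos. Without Nkx2-5+GFP embryo 1, 1 slc pair passed.

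**Figure D4:**
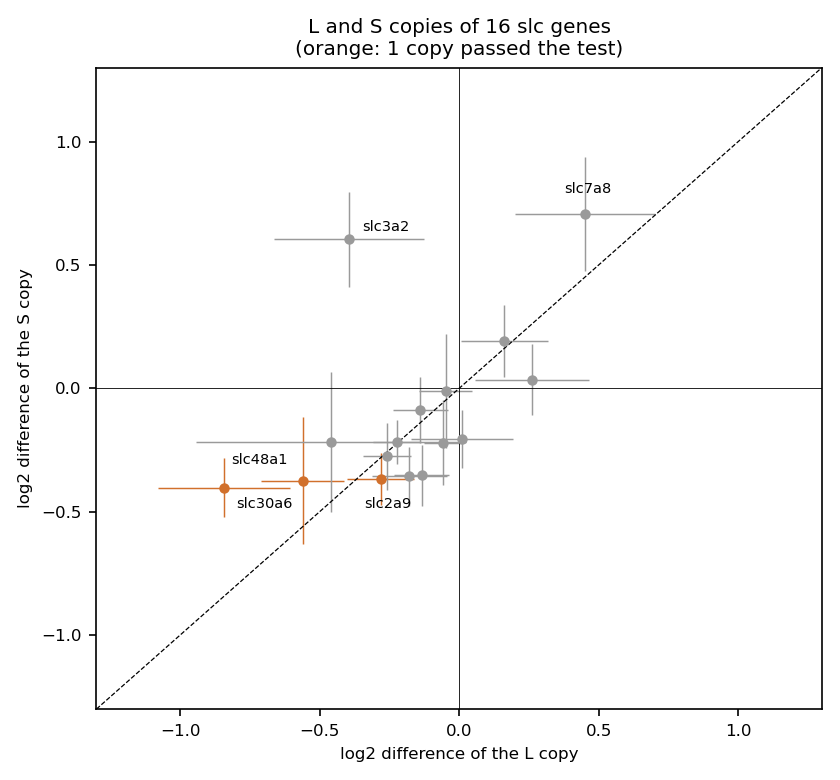
Log2 difference (Nkx2-5+GFP minus GFP) of the L copy (x axis) and the S copy (y axis) of 16 genes with both copies measured, with SE bars from limma; the dashed line marks equal differences and orange marks pairs in which 1 copy passed. Both copies lie below 0 for 11 genes and above 0 for 3, and slc3a2 and slc25a11 have copies of opposite sign.

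The spread between embryos of a group differed from gene to gene. The median SD of log2 signal over the 120 genes was 0.22 in GFP and 0.23 in Nkx2-5+GFP embryos, beside 0.25 and 0.28 over all probe sets. Among the 64 genes at or above the median signal, the widest among GFP embryos was slc25a29.L (SD 0.72), then slc7a8.L (SD 0.67), which read 206 to 741 there and 392 to 679 in Nkx2-5+GFP embryos. The narrowest were slc16a3.L (SD 0.06) and slc7a9.L (SD 0.06). slc25a44.S was narrow among GFP embryos, at 2461 to 2885, and wide in the other group, at 1608 to 3393. GFP embryo 3 was the highest of its group in 22.5% of members and in 22.3% of all probe sets. Nkx2-5+GFP embryo 1 was the lowest of its group in 23.3% of members and in 19.2% of all probe sets.

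The count of 10 moved with single embryos, as did the share of all probe sets that passed. Leaving out GFP embryo 2, 3, 4 or 6 left 5, 4, 6 or 4 genes, in that order. The shares of all probe sets were then 3.6%, 2.13%, 2.99% and 2.6%. Leaving out embryo 1, 2, 4 or 6 of the other group left 3, 4, 4 or 5, beside 1.84%, 3.24%, 3.35% or 3.29%. Leaving out Nkx2-5+GFP embryo 5 gave 18, beside 9.59%. Leaving out GFP embryo 1, GFP embryo 5 or Nkx2-5+GFP embryo 3 gave 8, 12 or 9, beside 4.91%, 9.58% or 5.12%. Over all probe sets the number that passed went from 988 to between 285 (without Nkx2-5+GFP embryo 1) and 1485 (without Nkx2-5+GFP embryo 5). The genes that passed whichever embryo was left out were slc22a4.L, slc17a9.L and slc35b3. The ratio of the 3' to the 5' beta-actin control probe set, a measure of RNA integrity and labelling, was 2.81 to 4.27 in GFP and 2.68 to 3.33 in Nkx2-5+GFP embryos (exact permutation p = 0.154). With that ratio in the fit, which was added after the data were seen, all 10 genes kept their sign, slc22a4.L still passed (limma adjusted p = 0.00982) and the other 9 did not (limma adjusted p from 0.0501 for slc17a9.L to 0.185 for slc2a9.S). Of all probe sets, 1.03% passed in that fit, in place of 6.38%.

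**Figure D5:**
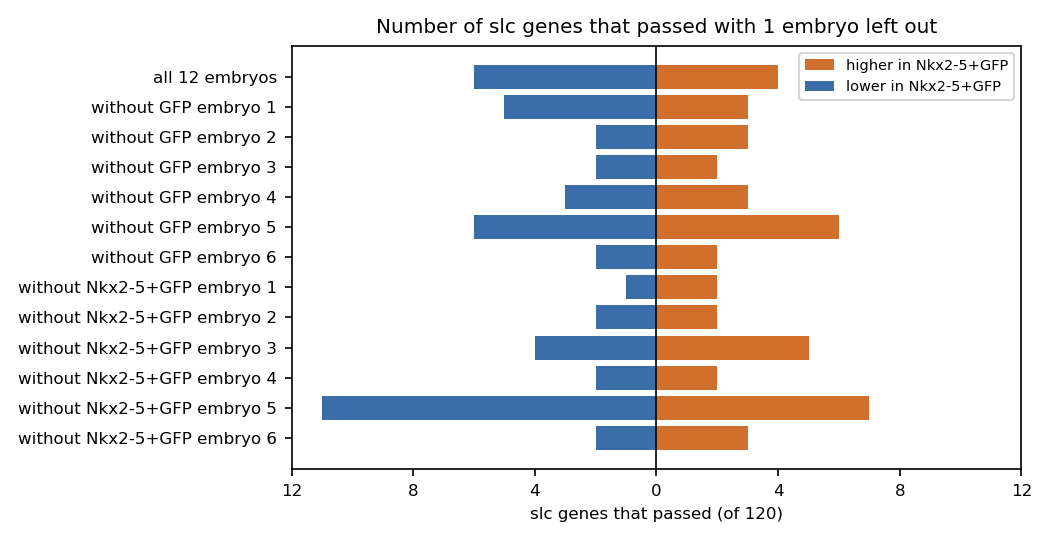
Number of the 120 solute carrier genes that passed (x axis), to the right for genes higher and to the left for genes lower in Nkx2-5+GFP embryos, with all 12 embryos and with each embryo left out in turn. The bars run from 3 genes without Nkx2-5+GFP embryo 1 to 18 without Nkx2-5+GFP embryo 5. Of all probe sets, 1.84% and 9.59% passed in these 2 cases.

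Of the 120 genes, 109 have 1 probe set, and the other 11 have 1 further probe set each. Of these 11, slc35b3 passed and 10 did not. The further probe sets had the sign of the main one except for slc39a7.L, at -0.19 in place of 0.16.

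Other membrane transport genes were read beside the solute carriers: ATP-driven pumps, ABC transporters, aquaporins and channels, 62 in all. There 1 rose, 1 fell and 60 did neither, where 6.38% of all probe sets passed, and the median was 0.00378. The endoplasmic reticulum calcium pump gene atp2a2.S rose from 6751 to 8334 in GFP embryos to 9178 to 10052 in Nkx2-5+GFP embryos, without overlap (log2 difference 0.29, limma SE 0.06, adjusted p = 0.0216). The potassium channel gene kcnk5.S, at 2121 to 2838 and 1513 to 2054, fell by 0.47 on the log2 scale (limma SE 0.10, adjusted p = 0.0146). The sodium pump supplies the gradient that many slc proteins use, and its 4 measured subunit genes, all of the beta type, lay between 0.15 and 0.29 without passing. Of 17 proton pump genes 0 passed, and 1 stood at an unadjusted p under 0.05, beside 6.38% and 24.3% of all probe sets. Whether the solute carriers differ from these genes in their share of changes was not tested.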

How the data were processed

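Whole single embryos were profiled on 12 arrays, 6 per group, from 100 ng of total RNA each. The deposited intensity values are MAS5 signals, per the submitters' processing notes. They are linear, and each array's trimmed mean (2% cut from each end) is near 1000, as tested on the deposited values. Per the labels, 1 experiment is named. No further processing step is given in the sources used here.

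Of 15611 probe sets, 120 control probe sets were left out and 15491 tested with limma 3.58.1 in R 4.3.3 (lmFit, eBayes with an intensity trend, 2-sided) on log2(signal + 16), with no filter on dim probe sets. The precision is limited by 6 arrays per group. Names came from the platform annotation, which gave 9304 probe sets 1 gene, 195 several and 5992 none. Each symbol was read by the probe set with the highest mean. Of the solute carrier members, 56 had means under the median of all probe sets and 64 at or above it. No covariate is stated, so the replicate number was used only as an alternative block. Deviations of same-numbered embryos from their group means correlated by -0.15 to 0.13.

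The members and lists were chosen with earlier results of these data known. The genes given in detail were those that passed, their other L or S copies, the 6 brightest, and in each class of 5 or more the uncalled gene of largest difference among those with a group mean at or above the array median. Alternatives changed the pseudocount (1 or 64), filter, scaling, trend, weights, block and embryos used.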

Additional observations from a re-analysis of the deposited data

Results flagged for a closer look

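Among the genes given in detail, 56 groups of 6 embryos were checked for an embryo far from the others by Dixon's criterion, and 3 stood apart. Chance sets apart about 1 in 20 such groups. For slc22a4.L, Nkx2-5+GFP embryo 4 read 6642, while the others of its group read 4852 to 5051. For slc30a6.S, Nkx2-5+GFP embryo 5 read 2246, while the others read 1369 to 1638. Without that embryo slc30a6.S passed. For slc20a1.L, GFP embryo 1 read 2937, while the others read 2101 to 2339.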

How the results depend on the processing

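Over the alternative settings, the log2 differences of the genes given in detail kept their side of the threshold in 501 cases, lost a call in 66 and gained one in 15, and no gene with a call changed sign. The sign of slc6a14.2.L, near 0, did change. Members without a call in the main fit passed in at most 3 alternative settings. Without the intensity trend, 437 probe sets passed on the whole array, 1 solute carrier fell, and 0 other transport genes rose. Scaling to the array median gave a member median of 0.00349, beside 0.0338 over all probe sets. Quantile normalization left 0 other transport genes that rose. A pseudocount of 64 gave 19 homeolog pairs that differed, in place of 11. The replicate block left 5 carriers that rose, 4 that fell and 7 pairs, and 6 of the 10 calls were kept. The 4 that no longer passed with the block were slc18a1.S (limma adjusted p = 0.0697), slc48a1.L (0.0587), slc8b1.S (0.0633) and slc2a9.S (0.0960). Among the genes given in detail, slc22a5.L and slc5a8.1.L gained a call with the block (limma adjusted p = 0.0441 and 0.0203). Deviations of same-numbered embryos correlated by -0.15 to 0.13. No pairing is stated, so the numbers were not taken to pair the embryos. With the beta-actin ratio as a covariate, added after the data were seen, 160 probe sets passed on the whole array, 1 carrier rose, 0 fell, 5 pairs differed, and 0 other transport genes rose and 0 fell. The cause was not tested in any of these cases. Leaving out 1 embryo at a time gave 285 to 1485 probe sets on the whole array, 2 to 7 carriers that rose, 1 to 11 that fell, a member median of -0.06 to -0.03, 4 to 16 pairs, 1 other transport gene that rose and 1 to 5 that fell. Without the dimmer probe sets 4 of the 10 calls could not be tested, those of slc35c2.S, slc18a1.S, slc30a6.L and slc8b1.S. The other 6 were kept. Of the 64 members tested there, 5 rose and 5 fell, 15.6% beside 13.1% of the 7746 probe sets. Signals near background limit what can be said of the 56 members under the array median.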
